A study of Homo sapiens with 6 samples.

Results

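The genes described here belong to 5 families that multiplied by segmental duplication during primate evolution: NPIP, NBPF, GOLGA8, AGAP and ANKRD36. Members were taken by their symbol in the platform annotation (NPIPA or NPIPB with a number, NBPF with a number, GOLGA8 with a letter, AGAP with a number, and symbols that begin with ANKRD36). The antisense RNA AGAP2-AS1 was left out. The rule keeps AGAP1-IT1, a transcript from within an intron of AGAP1. Where several features of the array carried the same symbol, the brightest by its 6-array mean stands for the gene. This gave 64 genes of the 33616 tested, namely 14 of NPIP, 21 of NBPF, 12 of GOLGA8, 11 of AGAP and 6 of ANKRD36, of which 46 are protein-coding. The families were chosen by measured values as well as by name, with falls of NPIP genes and of GOLGA8B on these same arrays already known, so the counts below describe the families and are not independent evidence of a direction.

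Caco-2, from a human colon carcinoma, is widely used to model the intestinal epithelium, and its RNA was hybridised to Affymetrix arrays. The 3 NC arrays carry the genotype NC, whose meaning the labels do not spell out, and the 3 overexpression arrays carry the genotype apoM. Apolipoprotein M (apoM) binds sphingosine-1-phosphate in high-density lipoprotein particles. All values are the deposited log2 values, and a change is the mean of the apoM overexpression arrays minus the mean of the NC arrays. The labels give neither the vector, the number of clones nor the time of culture. Nor do they state whether the RNA of each array came from its own culture. The p-values then reflect only differences between the arrays of a group, possibly technical ones, and 3 arrays per group allow limited precision.

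APOM itself was at 5.38, 5.84 and 6.41 on the NC arrays and at 15.49, 15.56 and 15.85 on the overexpression arrays, a change of 9.76 (SE 0.25) in the labelled direction. Of the colon epithelial markers, EPCAM, CDH1, KRT8, KRT18, KRT19, VIL1, CDX2, CDH17 and FABP1 had mean signals between 12.56 and 18.58 in either group. The other 4 measured were dimmer, with KRT20 at 7.19 in NC and 7.26 with apoM overexpression, GPA33 at 5.04 and 5.15, and CDX1 and LGALS4 at 3.80 to 4.001. Of markers of other cell types, 5 of fibroblasts, 5 of leukocytes, 4 of endothelium and 2 of erythroid cells were measured, with highest group means of 9.30, 8.79, 6.18 and 4.09. None of these markers passed the test; at an unadjusted p under 0.05, 3 of the 13 colon epithelial markers measured, the keratins KRT8, KRT18 and KRT19, were higher, and 1 erythroid marker, HBB, was lower.

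Segmental duplications are long stretches of genome copied nearly unchanged to other places, and their genes are close copies of one another. NPIP genes, named for a nuclear pore interaction, are spread over chromosome 16 on the duplicon LCR16a and changed their coding sequence unusually fast in apes. NBPF genes on chromosome 1 encode tandem Olduvai (DUF1220) domains, whose copy number rose most in the human lineage. GOLGA8 genes on chromosome 15 encode coiled-coil proteins related to the golgin GOLGA2. AGAP proteins are Arf GTPase-activating proteins with GTPase-like, ankyrin and pleckstrin homology domains; AGAP1, AGAP2 and AGAP3 are older genes, and the others on chromosome 10 are recent copies. ANKRD36 genes encode ankyrin repeat proteins.

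Members of all 5 families were lower with apoM overexpression. In limma, a linear model fitted to every gene, 17 of the 64 genes fell (adjusted p under 0.05 over all genes tested) and none rose, while over all genes tested 2.06% passed, 0.357% downward and 1.70% upward. At an unadjusted p under 0.05, 46 members were lower, against 4.85% of all genes, and 1, AGAP2, was higher. The change was below 0 in 57 members and in 37.1% of all genes. The median change was -0.78 over the 64 genes and 0.09 over all genes tested. In 42 members all 3 overexpression arrays lay below all 3 NC arrays, which held for 7.08% of all genes. The falls were 8 of 14 in NPIP, 4 of 11 in AGAP, 2 of 21 in NBPF, 2 of 6 in ANKRD36 and 1 of 12 in GOLGA8. The count depended on single arrays. None of the 64 passed when either replicate 1 or replicate 2 of NC was left out, nor without replicate 1 or replicate 2 of apoM overexpression. Leaving out apoM overexpression replicate 3 left 13, and leaving out NC replicate 3 left 22. The 17 genes kept their direction in each of these 6 fits, but this was fixed in advance because their groups did not overlap. Testing all 135750 features in place of genes also left none past the threshold, with adjusted p-values of the 17 from 0.0721 to 0.105. In bulk RNA, fewer cells of a kind and less RNA per cell cannot be told apart.

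**Figure D1:**
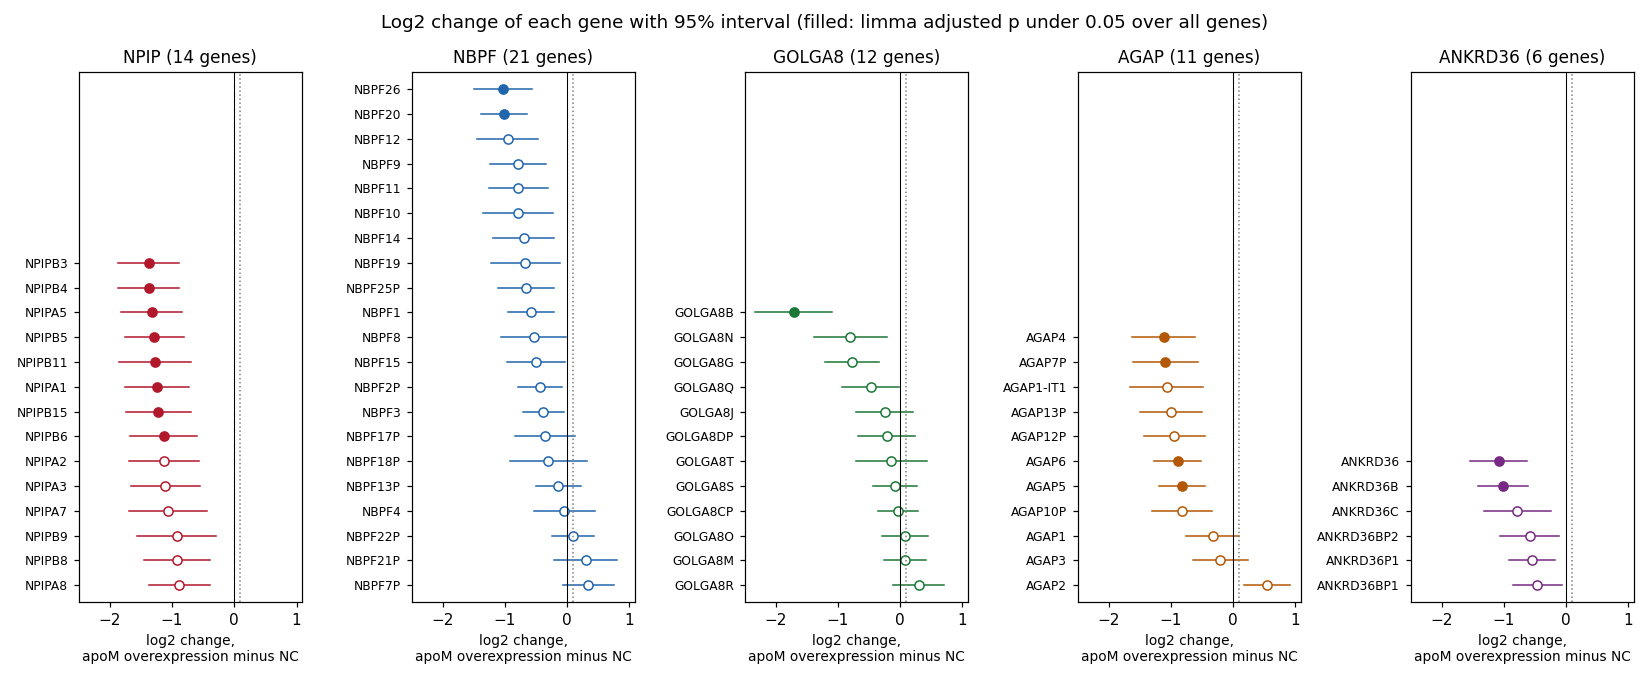
Log2 change (apoM overexpression minus NC, x axis) of each of the 64 genes by family, with its 95% interval from limma. Filled points passed an adjusted p of 0.05 over all genes, the solid line marks 0 and the dotted line marks the median change of all genes, 0.09. All 14 NPIP and all 6 ANKRD36 genes lie left of 0, and GOLGA8B lies far from the rest of its family.

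NPIP had the lowest family median, -1.18, and its 14 genes ranged from -1.38 to -0.88. In each of them the overexpression arrays lay below the NC arrays. NPIPB3 read 16.35, 16.10 and 15.59 on NC replicates 1, 2 and 3 and 14.50, 14.51 and 14.89 with apoM overexpression. It fell by 1.38 (SE 0.22), a 2.60-fold difference (limma adjusted p = 0.0245). NPIPB4 read 17.89, 17.39 and 17.12 in NC and 15.88, 16.07 and 16.33 with apoM overexpression. It fell by 1.37 (SE 0.22, limma adjusted p = 0.0253). In both genes the lowest NC value, on replicate 3, stayed above the highest overexpression value, also on replicate 3.

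NPIPA1 read 13.99, 13.50 and 13.53 in NC and 12.11, 12.30 and 12.89 with apoM overexpression (change of -1.24, SE 0.23). NPIPA5 read 15.38, 15.13 and 15.01 in NC and 13.50, 13.74 and 14.28 with apoM overexpression (change of -1.33, SE 0.22). Neither pair of groups overlapped. NPIPB5, NPIPB11, NPIPB15 and NPIPB6 also fell, with changes of -1.29, -1.27, -1.22 and -1.14. The remaining 6 genes missed the threshold: NPIPA2 had a change of -1.13, NPIPA3 of -1.11, NPIPA7 of -1.07, NPIPB9 of -0.93, NPIPB8 of -0.92 and NPIPA8 of -0.88, the smallest in the family. Their adjusted p-values ran from 0.0528 to 0.109. The median was -1.12 over the 6 genes of the A branch and -1.25 over the 8 of the B branch.

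Some NPIP features gave nearly the same readings. The features of NPIPA2 and NPIPA3 differed by at most 0.05 on any of the 6 arrays. The feature of NPIPB3 and a second, dimmer feature of NPIPB4 differed by at most 0.13. Of the 631 pairs of features within a family, 1 pair agreed within 0.1 on every array and 4 within 0.2, all of them of NPIP. Probes on near-identical copies may read one another, so the value of any single copy is uncertain, and the array's probe sequences were not used here. The second features of NPIPB4 and NPIPA5 had changes of -1.40 and -1.26, next to -1.37 and -1.33 on the brighter ones. A feature annotated to NPIPA7, NPIPA8 and the pseudogene PKD1P1 together had a change of -1.39.

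Start sites were compared within each family. In the RefSeq promoter table of GRCh38.p14, which gives 250 bases before and 50 after an annotated start, 37 of the 64 genes have a window. The windows of NPIPA1 and NPIPA5 were 99.7% identical and differed by the substitution A206T (NPIPA1 first, counted from 1 at the 5′ end of the window). They are shown because both genes fell by nearly the same amount. Like changes also occurred without alike windows: NPIPB3 and NPIPB4 had changes of -1.38 and -1.37 and windows 50.8% identical. Below, the base that differs between NPIPA1 and NPIPA5 is in capitals.
NPIPA1 (chr16:14937193-14937492, plus strand): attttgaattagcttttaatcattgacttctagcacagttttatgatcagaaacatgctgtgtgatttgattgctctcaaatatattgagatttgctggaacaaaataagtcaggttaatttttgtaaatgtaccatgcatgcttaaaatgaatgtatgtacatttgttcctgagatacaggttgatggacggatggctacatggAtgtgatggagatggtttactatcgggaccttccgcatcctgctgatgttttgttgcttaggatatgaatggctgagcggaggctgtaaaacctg
NPIPA5 (chr16:15378245-15378544, minus strand): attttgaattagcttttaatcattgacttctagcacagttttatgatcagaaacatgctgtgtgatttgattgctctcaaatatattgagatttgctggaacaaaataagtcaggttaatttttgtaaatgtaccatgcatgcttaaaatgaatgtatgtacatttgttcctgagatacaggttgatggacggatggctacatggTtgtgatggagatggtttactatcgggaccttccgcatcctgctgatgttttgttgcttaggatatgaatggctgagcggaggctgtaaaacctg
Over all 35 pairs of NPIP windows the median identity was 50.4%. The identity of unrelated windows was not measured, so a value near this level cannot be read as shared sequence.

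In AGAP, all 7 genes on chromosome 10 were lower and 4 fell. Of the 3 older genes elsewhere, 2 were lower and none fell. The chromosome 10 genes had changes from -1.11 to -0.82, with a median of -0.94. Each had its overexpression arrays below its NC arrays. AGAP4 read 12.52, 11.99 and 11.91 in NC and 10.93, 10.73 and 11.42 with apoM overexpression (change of -1.11, SE 0.23, limma adjusted p = 0.0411). The pseudogene AGAP7P read 13.73, 13.20 and 13.25 in NC and 12.16, 11.98 and 12.76 with apoM overexpression (change of -1.09, SE 0.23). In both genes NC replicate 1 was the highest array and apoM overexpression replicate 3 the nearest of its group to NC. AGAP6 and AGAP5 had smaller falls and a smaller spread between arrays. AGAP6 read 12.03, 11.69 and 11.76 in NC and 10.75, 10.999 and 11.05 with apoM overexpression (change of -0.89, SE 0.17). AGAP5 read 12.30, 12.002 and 11.96 in NC and 11.21, 11.17 and 11.41 with apoM overexpression (change of -0.83, SE 0.16). The pseudogenes AGAP13P, AGAP12P and AGAP10P had changes of -0.997, -0.94 and -0.82 that missed the threshold (limma adjusted p from 0.0537 to 0.0719).

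The older AGAP genes differed in direction among themselves. AGAP1, which acts in endosomal protein sorting, read 11.63, 11.75 and 11.11 in NC and 11.17, 11.11 and 11.23 with apoM overexpression, a change of -0.33 (95% interval -0.75 to 0.10). NC replicate 3 lay within the overexpression values. AGAP3 had a change of -0.20 (95% interval -0.65 to 0.24). With 1 array left out, AGAP1 lay between -0.52, without NC replicate 3, and -0.20, without NC replicate 2. AGAP3 then lay between -0.41, without apoM overexpression replicate 2, and -0.079, without apoM overexpression replicate 3. AGAP2, also known as PIKE, an enhancer of PI3-kinase and Akt signalling, read 3.90, 3.63 and 3.90 in NC and 4.32, 4.56 and 4.19 with apoM overexpression. Its change of 0.55 (SE 0.17) missed the threshold (limma adjusted p = 0.111), although its groups did not overlap, and its mean over the 6 arrays, 4.08, was below the array medians of 4.48 to 4.53. Whether these 3 genes changed by a different amount from the chromosome 10 copies was not tested.

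AGAP1-IT1, from within AGAP1, had a change of -1.07 (SE 0.26, limma adjusted p = 0.0636), while the brightest AGAP1 feature changed by -0.33. A second AGAP1 feature, which carries no gene ID, read 5.95, 5.87 and 5.62 in NC and 5.03, 5.04 and 5.22 with apoM overexpression, a change of -0.72. Over the 77 genes named as intronic transcripts (symbols with -IT and a number), a set chosen after values were seen, the median change was -0.0042 and 1 fell. At an unadjusted p under 0.05, 17 of them were lower and 3 higher, and 15 had groups apart downward and 5 upward. Of all 33616 genes tested, 0.357% fell, and 1629 were lower and 4808 higher at that unadjusted p. Groups were apart downward in 7.08% of all genes and upward in 17.3%.

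The windows of AGAP5 and AGAP6 were 98.3% identical, and both genes fell. They differed by T22C, C50A, G169C, C208G and G281A (AGAP5 first), in capitals below. The median identity over all 40 pairs of AGAP windows was 50.1%, likewise not set against unrelated windows.
AGAP5 (chr10:73698060-73698359, minus strand): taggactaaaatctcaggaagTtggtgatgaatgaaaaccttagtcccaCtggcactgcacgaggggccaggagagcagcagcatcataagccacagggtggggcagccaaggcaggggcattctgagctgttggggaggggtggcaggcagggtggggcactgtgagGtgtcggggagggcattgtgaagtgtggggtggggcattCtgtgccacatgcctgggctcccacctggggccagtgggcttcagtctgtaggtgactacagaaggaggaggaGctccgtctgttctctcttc
AGAP6 (chr10:49988118-49988417, plus strand): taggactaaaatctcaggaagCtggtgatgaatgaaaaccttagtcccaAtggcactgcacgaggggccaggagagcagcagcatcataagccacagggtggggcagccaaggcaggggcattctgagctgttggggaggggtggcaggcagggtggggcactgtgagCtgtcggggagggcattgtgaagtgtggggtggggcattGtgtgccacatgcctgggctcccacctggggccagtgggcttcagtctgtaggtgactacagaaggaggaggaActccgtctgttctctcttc

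**Figure D2:**
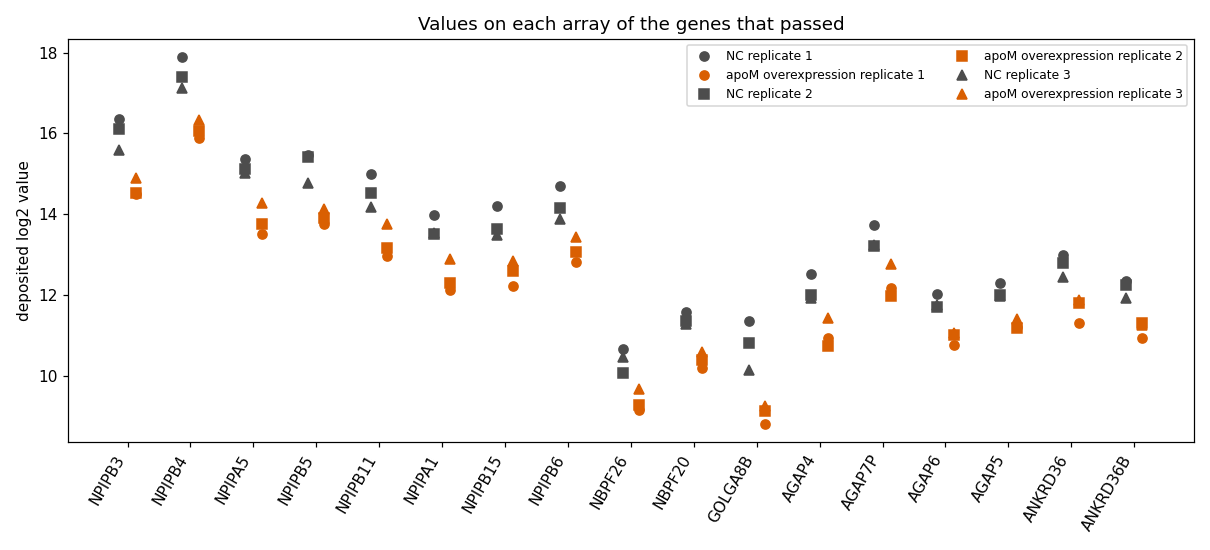
Deposited log2 value (y axis) on each array of the 17 genes that passed (x axis, ordered by family and change). Grey symbols are NC and orange symbols apoM overexpression, with a shape for each replicate number. In every gene the 3 orange symbols lie below the 3 grey ones, and apoM overexpression replicate 3 (triangle) is the orange symbol closest to NC in most.

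All 6 ANKRD36 genes were lower, with a median of -0.68 and their groups apart. ANKRD36 read 12.97, 12.79 and 12.44 in NC and 11.30, 11.80 and 11.87 with apoM overexpression (change of -1.08, SE 0.21, limma adjusted p = 0.0359). A second ANKRD36 feature had a change of -1.03. ANKRD36B read 12.34, 12.25 and 11.92 in NC and 10.93, 11.29 and 11.24 with apoM overexpression (change of -1.02, SE 0.18, limma adjusted p = 0.0310). Both genes were lowest on apoM overexpression replicate 1. ANKRD36C, the other protein-coding copy, had a change of -0.78 and missed the threshold (limma adjusted p = 0.114). The 3 pseudogenes had changes between -0.58 and -0.46, ANKRD36BP2 at -0.58 and ANKRD36BP1 at -0.46.

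NBPF was lower in 18 of 21 genes, with a median of -0.54, and 2 fell. NBPF26 read 10.66, 10.07 and 10.46 in NC and 9.14, 9.28 and 9.67 with apoM overexpression (change of -1.03, SE 0.21, limma adjusted p = 0.0398). NBPF20 read 11.58, 11.35 and 11.28 in NC and 10.20, 10.39 and 10.58 with apoM overexpression (change of -1.02, SE 0.17, limma adjusted p = 0.0279). In both genes the highest overexpression value, on replicate 3, lay below every NC value. NBPF12 had a change of -0.96 (limma adjusted p = 0.0549). The 13 protein-coding NBPF genes ranged from -1.03 to -0.04, with a median of -0.70, and 9 of them had groups apart. The 8 pseudogenes had a median of -0.22 and a range from -0.66 to 0.34.

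The NBPF members that were not lower were dim pseudogenes. NBPF7P, the pseudogene with the highest change of the family, read 4.82, 4.80 and 4.67 in NC and 5.004, 4.86 and 5.44 with apoM overexpression, a change of 0.34 (limma adjusted p = 0.350). The 2 pseudogenes off chromosome 1, NBPF21P and NBPF22P, had changes of 0.30 and 0.09. NBPF4, protein-coding, had a change of -0.04 (95% interval -0.53 to 0.44). NBPF1 and NBPF3 had changes of -0.58 and -0.38, and both had their groups apart.

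GOLGA8 held the deepest fall of the 64 genes, while most of its members had changes nearer 0. GOLGA8B read 11.36, 10.81 and 10.14 in NC and 8.81, 9.11 and 9.25 with apoM overexpression. It fell by 1.71 (SE 0.28), a 3.28-fold difference (limma adjusted p = 0.0273). NC replicate 3 was the lowest of its group and still above every overexpression array. A feature annotated to GOLGA8A and GOLGA8B together read 11.53, 11.08 and 10.71 in NC and 8.98, 9.34 and 9.90 with apoM overexpression, a change of -1.70. In the fit over all features, where no member passed, that feature had a limma adjusted p of 0.0721 and GOLGA8B of 0.0738. Features that name several genes went both ways: of the 12 that name a member of any family, 8 had changes below 0 and 4 above. Groups were apart downward in 5 and upward in 1. Of all genes tested, 37.1% were below 0, and groups were apart downward in 7.08% and upward in 17.3%. The feature with groups apart upward was annotated to GOLGA8J and GOLGA8IP. It read 3.92, 4.496 and 4.21 in NC and 5.09, 4.79 and 5.03 with apoM overexpression. Its change of 0.76 missed the threshold (limma adjusted p = 0.134 over all features). The features of GOLGA8EP with GOLGA8DP and of NBPF6 with NBPF5P had changes of 0.34 and 0.23. Those of AGAP9 with CTGLF11P and of GOLGA8F with GOLGA8G had changes of -0.96 and -0.61. The GOLGA8 family median was -0.18, and with 1 array left out it ran from -0.39 (apoM overexpression replicate 3 left out) to -0.081 (NC replicate 2 left out). GOLGA8N, GOLGA8G and GOLGA8Q had changes of -0.80, -0.77 and -0.47 that missed the threshold. Only GOLGA8B, GOLGA8N and GOLGA8G had their groups apart. The other 8 members lay between -0.25 and 0.30, with GOLGA8R at 0.30, GOLGA8M and GOLGA8O at 0.08 and GOLGA8CP at -0.03. GOLGA8O has 3 features, whose changes were 0.08, 0.23 and -0.04.

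Many GOLGA8 start sites are near copies of one another. Of the 19 pairs of windows at least 95% identical, among 197 pairs within the 5 families, 16 were of GOLGA8, and genes with alike windows did not always have like changes. GOLGA8J and GOLGA8T had identical windows and changes of -0.25 and -0.14. GOLGA8O and GOLGA8N had windows 98.7% identical and changes of 0.08 and -0.80. GOLGA8G and GOLGA8S had windows 99.3% identical, with the substitutions G67A and C89A (GOLGA8G first). GOLGA8G read 8.42, 8.15 and 8.29 in NC and 7.19, 7.51 and 7.84 with apoM overexpression, a change of -0.77. GOLGA8S read 5.79, 5.94 and 6.03 in NC and 5.68, 5.84 and 5.98 with apoM overexpression, a change of -0.09 (95% interval -0.44 to 0.27). The windows of this pair follow, with the bases that differ in capitals, and that of GOLGA8B for comparison, all in lower case.
GOLGA8G (chr15:28532922-28533221, minus strand): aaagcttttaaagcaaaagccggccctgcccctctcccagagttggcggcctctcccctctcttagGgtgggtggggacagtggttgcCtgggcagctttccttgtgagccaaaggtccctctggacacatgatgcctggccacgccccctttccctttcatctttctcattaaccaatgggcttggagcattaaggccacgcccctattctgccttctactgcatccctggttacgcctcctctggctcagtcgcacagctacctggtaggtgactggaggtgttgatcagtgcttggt
GOLGA8S (chr15:23354498-23354797, plus strand): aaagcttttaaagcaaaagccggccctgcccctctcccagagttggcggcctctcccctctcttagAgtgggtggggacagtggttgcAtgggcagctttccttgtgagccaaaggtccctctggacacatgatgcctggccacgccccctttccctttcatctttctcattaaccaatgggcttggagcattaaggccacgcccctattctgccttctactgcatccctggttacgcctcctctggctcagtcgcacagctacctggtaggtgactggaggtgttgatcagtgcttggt
GOLGA8B (chr15:34583602-34583901, minus strand): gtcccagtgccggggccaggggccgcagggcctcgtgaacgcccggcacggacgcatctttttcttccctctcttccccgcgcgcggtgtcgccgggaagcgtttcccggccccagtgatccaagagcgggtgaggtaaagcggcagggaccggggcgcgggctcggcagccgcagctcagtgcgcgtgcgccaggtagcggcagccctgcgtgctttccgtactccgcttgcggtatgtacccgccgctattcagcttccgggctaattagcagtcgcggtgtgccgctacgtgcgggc

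Short promoter motifs were searched on both strands of the 44 windows of the 37 members and of all 35116 windows of the table. CCAAT was found in 9 of 10 GOLGA8 windows, 4 of 10 of AGAP, 3 of 9 of NPIP, 2 of 13 of NBPF and 0 of 2 of ANKRD36, and in 34.6% of all windows. Windows of near copies are not independent counts, and the 45 pairs of GOLGA8 windows had a median identity of 88.7%. The GC box core GGGCGG was in 11 of the 44 and in 45.0% of all windows. TATAAA was in 4 of 9 NPIP and 4 of 13 NBPF windows, in none of the other windows, and in 11.5% of all windows. CCGGAA was in 3 and CACGTG in 1 of the 44, against 17.2% and 7.26% of all windows. The motifs can overlap, and a match is only a run of letters.

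The change differed with the signal of the feature. Signal depends on a feature's probes and is no measure of a transcript's level. Of the 30 members with a mean log2 value of 10 or more, all were lower, 29 had their groups apart, 15 fell, and the median change was -1.02. Of all 4924 genes in that band, 45 fell and 722 had groups apart downward. Of the 20 with a mean from 6 to 10, 19 were lower, 12 had groups apart, 2 fell and the median was -0.56. Of all 8881 genes there, 61 fell and 872 had groups apart downward. Of the 14 with a mean under 6, 8 were lower, 1 had its groups apart downward and 2, AGAP2 and NBPF7P, upward, none fell, and the median was -0.04. Of all 19811 genes there, 14 fell, 787 had groups apart downward and 2353 upward. Over all genes tested the medians in these bands were 0.13, 0.09 and 0.08. All 14 NPIP genes, 8 AGAP genes, 4 ANKRD36 genes and 4 NBPF genes were in the highest band. No GOLGA8 gene was, and the 6 GOLGA8 genes from 6 to 10 had a median of -0.62 against -0.06 for the 6 under 6. The table gives no background reading, and the background's part in the values of dim features was not tested.

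**Figure D3:**
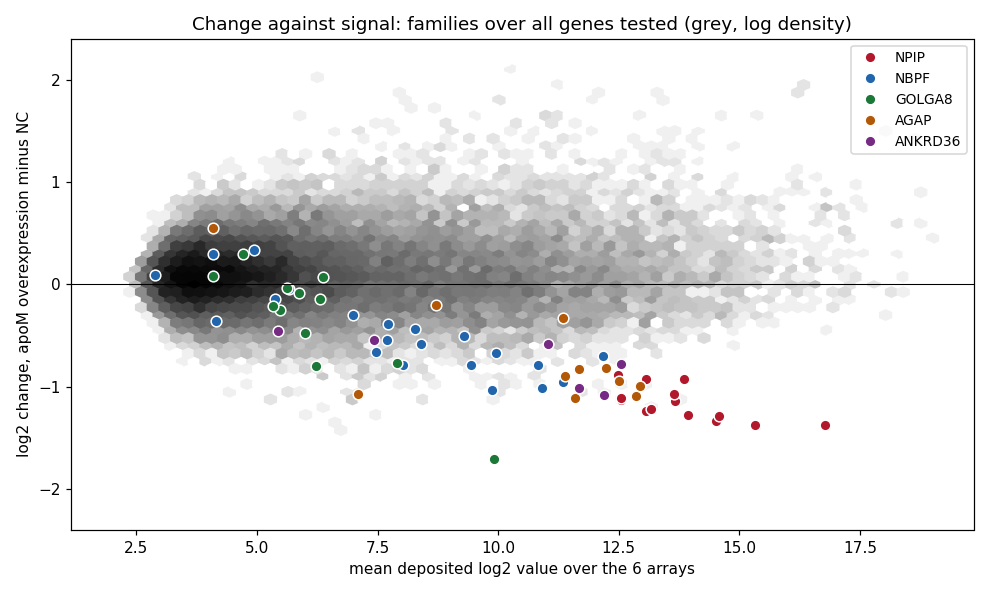
Log2 change (apoM overexpression minus NC, y axis) against the mean deposited log2 value over the 6 arrays (x axis). Coloured points are the genes of the 5 families and grey shading is the density of all 33616 genes tested on a log scale. The members with a mean of 10 or more all lie below 0, while those under 6 spread to both sides of it.

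The families shared their pattern over the arrays as well. The median deviation of the 14 NPIP genes from each gene's own 6-array mean was 0.93, 0.46 and 0.37 on NC replicates 1, 2 and 3. It was -0.91, -0.69 and -0.16 on apoM overexpression replicates 1, 2 and 3. AGAP gave 0.71, 0.33 and 0.33 in NC and -0.63, -0.51 and -0.16 with apoM overexpression. In both families NC replicate 1 was the highest array and apoM overexpression replicate 3 the nearest to NC. NBPF had 0.47, 0.19 and 0.19 in NC and -0.42, -0.20 and -0.11 with apoM overexpression. ANKRD36 had 0.56, 0.32 and 0.24, then -0.74, -0.35 and -0.26. GOLGA8 departed from this pattern, with -0.01, 0.06 and 0.08 in NC and -0.18, -0.25 and 0.10 with apoM overexpression, so that its median on replicate 3 was higher with apoM overexpression than in NC. Over all genes tested the medians lay between -0.08 and 0.05, with the NC arrays at -0.08, -0.07 and 0.00. What sets the arrays of a group apart was not tested.

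**Figure D4:**
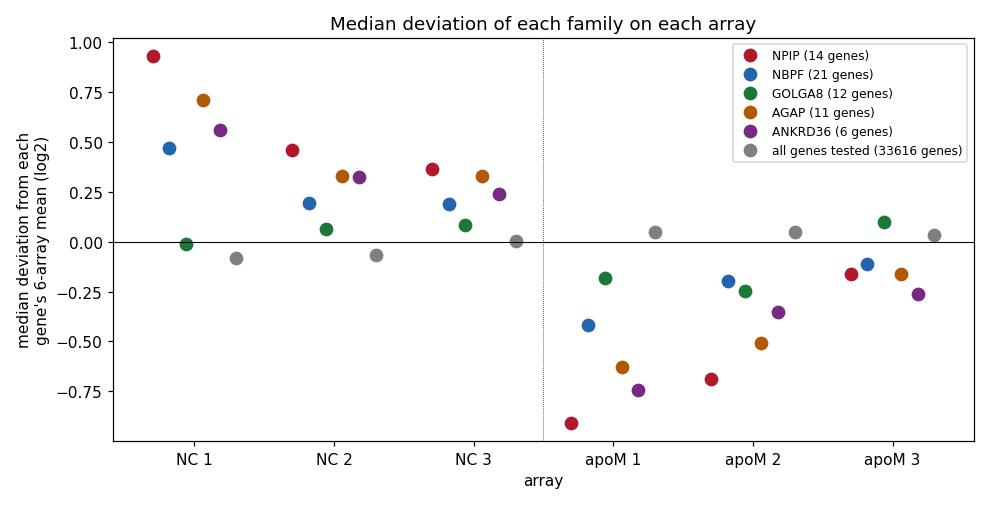
Median deviation (log2, y axis) of each family from the 6-array mean of each gene, by array (x axis), with all genes tested in grey. NPIP, AGAP, ANKRD36 and NBPF are above 0 on the 3 NC arrays and below 0 on the 3 overexpression arrays, furthest on NC replicate 1 and apoM overexpression replicate 1. GOLGA8 stays between -0.25 and 0.10.

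Gene spans with introns, from the GRCh38.p14 gene table, had medians of 21.7 kb in NPIP, 22.1 kb in AGAP, 13.7 kb in GOLGA8, 50.1 kb in NBPF and 69.0 kb in ANKRD36. These family medians include pseudogenes and other biotypes. The median was 7.59 kb over all genes tested that have a span and 26.1 kb over the protein-coding ones. With the trend of each array on gene span removed, the median changes in the same order were -1.27, -0.98, -0.28, -0.57 and -0.72. Then 20 members fell, the 17 among them. The median over all genes then also moved down, from 0.09 to -0.0052, and 0.518% of the 33036 genes with a span fell.

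Genes of the same stretches of chromosome 16 that are not NPIP were mixed. Of 36 listed, 17 were measured on features of their own. Their median change was -0.25, 3 fell and none rose, while 0.357% of all genes tested fell and 1.70% rose. Groups were apart downward in 6 of the 17 and upward in 2, against 7.08% and 17.3% of all genes. The 3 that fell were pseudogene copies of SMG1, the kinase of nonsense-mediated mRNA decay. SMG1P2 read 15.51, 15.23 and 14.63 in NC and 13.42, 13.77 and 13.97 with apoM overexpression (change of -1.40, SE 0.24, limma adjusted p = 0.0298). SMG1P7 and SMG1P5 also fell, with changes of -1.53 and -1.23, while SMG1P1 had a change of -1.12 (limma adjusted p = 0.0501). SMG1 itself had a change of -0.43 (SE 0.17, limma adjusted p = 0.196). At an unadjusted p under 0.05, 6 of the 17 were lower and 1 higher, against 1629 lower and 4808 higher of all 33616 genes. The neighbours NOMO1, NOMO2 and PDXDC1 had changes of 0.14, 0.04 and -0.16.

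Of 77 other genes listed from primate duplications, 56 were measured, with a median change of -0.19. Of these 56, 42 were lower and 1 fell, next to 37.1% and 0.357% of all genes. At an unadjusted p under 0.05, 12 were lower and none higher, and 14 had groups apart downward, next to 4.85% and 7.08% of all genes. The fall was of STAG3L2, a relative of the cohesin subunit STAG3, by 0.92 (SE 0.19, limma adjusted p = 0.0411). ANKRD30B, POTEF and HERC2P3 had changes of -0.80, -0.80 and -0.73 and missed the threshold. Members of TBC1D3, another expanded primate family, went both ways: their 7 measured genes ranged from -0.25 for TBC1D3L, whose groups were apart, to 0.35 for TBC1D3K, and none passed.

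Single-copy relatives by function did not pass the test. None of 17 golgins and Golgi tethers passed, with a median of -0.03; GCC1 had a change of 0.62, GOLGB1, the giant golgin giantin, of -0.42, GOLGA4 of -0.36 and GOLGA7 of 0.34. At an unadjusted p under 0.05, 1 of the 17, GCC1, was different, against 19.1% of all genes. None of 17 measured ArfGAP relatives of AGAP passed, with a median of 0.04; GIT2 had a change of -0.46, ADAP1 of 0.36, ADAP2 of 0.33 and ASAP2 of 0.22, and 2 of the 17, GIT2 and ADAP1, had an unadjusted p under 0.05, also against 19.1% of all genes. Of 5 measured near relatives, NOTCH2, parent of the NOTCH2NL copies that lie beside NBPF genes, had a change of -0.66 (limma adjusted p = 0.0995). PDE4DIP, or myomegalin, which carries an Olduvai domain, had a change of -0.52 on a feature that read 3.63 to 4.83. ANKRD26 and CDK5RAP2 had changes of -0.23 and 0.14, and 2 of the 5 had an unadjusted p under 0.05. These lists give the context of the 5 families and were not compared with them by a test.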

How the data were processed

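Total RNA of Caco-2 cells was hybridised to Affymetrix arrays, 3 per group. The range of the deposited values is that of a log2 scale. The submitters' processing notes name Affymetrix Expression Console; how the arrays were normalized, and the build, is not given in the sources used here. Of 135750 features per array, 36176 carried 1 gene symbol in the platform annotation, 1119 several and 98455 none. The brightest feature per gene gave 33616 genes, and 58 of the 64 members were matched to RefSeq by gene ID and 6 by symbol. Changes were tested with limma 3.58.1 (lmFit and eBayes, R 4.3.3) with Benjamini-Hochberg adjustment over all genes. In simulated data of 3 against 3 arrays over 33616 genes, limma recovered 2% of planted log2 changes of 0.5, 72% of 1 and 100% of 2, with 10 false calls. The simulated noise was independent between genes, so deviations of an array shared by many genes were not part of it. Windows were aligned with Biopython 1.88.

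Named genes were APOM, members that passed, the extremes of each family, AGAP1 to AGAP3, members whose features differed in sign, and the 4 smallest p-values of each context list; other genes were named after their values were seen. Members and lists were chosen with earlier results of these data known. Context lists covered golgins, ArfGAP relatives, near relatives, chromosome 16 neighbours and other primate duplicated genes; marker lists covered colon epithelium, fibroblasts, leukocytes, endothelium and erythroid cells. Alternatives varied the normalization, feature choice, filter, variance model, array weights, block, arrays, features tested, gene span and threshold.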

Additional observations from a re-analysis of the deposited data

How the results depend on the processing

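The 17 genes that fell stayed lower under every alternative run, but most alternatives could not reverse a direction. Their groups did not overlap, so leaving out 1 array could not do so. Several others left each change as it was and altered only the variance, the filter or the adjustment. Of the 64 genes 17 fell, and over all genes 691 passed in either direction, 120 lower and 571 higher. Each pair of counts below gives the members that fell, then all genes that passed in either direction. The counts were 24 and 879 after quantile normalization, 19 and 698 after subtracting array medians, and 17 and 656 with the mean of a gene's features. They were 31 and 1730 over genes above the median level, which tests fewer genes, 25 and 1251 with a trended, robust variance, 24 and 1679 with array weights, and 31 and 2327 at an adjusted p under 0.1. Tested over all features they were 0 and 2 (adjusted p of the 17 genes from 0.0721 to 0.105), where more features are adjusted for. With the gene span trend removed they were 20 and 558, and the split over all genes was 171 lower and 387 higher, next to 120 and 571. Leaving out 1 array gave 0 to 22 members lower, 0 members higher, and 2 to 2358 genes over the table. Without NC replicate 1, NC replicate 2, apoM overexpression replicate 1 and apoM overexpression replicate 2 the table held 44, 8, 2 and 17. Without apoM overexpression replicate 3 it held 235, with 9 of the 17 genes among the 13 members left, and without NC replicate 3 it held 2358. The family medians then ranged from -1.39 to -0.9998 for NPIP, -0.68 to -0.46 for NBPF, -0.39 to -0.081 for GOLGA8, -1.01 to -0.78 for AGAP and -0.87 to -0.56 for ANKRD36. The GOLGA8 median was -0.39 without apoM overexpression replicate 3. GOLGA8O ranged from -0.036, without NC replicate 1, to 0.15, without apoM overexpression replicate 2, and was at -0.014 with the gene span trend removed; the cause was not tested. Same-numbered arrays did not deviate together (r of -0.07, 0.03 and -0.07 over all genes tested for numbers 1, 2 and 3), so the numbers were not taken as pairs. With the replicate number as a block, 0 members and 50 genes passed, and the adjusted p of the 17 genes ran from 0.0628 to 0.0922. Over the genes named by rule, APOM and the 17 genes among them, 525 values kept their sign and their side of the threshold. Another 137 lost the call, 21 gained one and 2 changed sign. The signal over background of dim features is unknown here, which limits what their values can show.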
